A study of Mus musculus with 2 samples.

Results

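The genes described here are 10 early-response genes of the Egr, Nr4a and Ier families together with Srf, the transcription factor that switches many of them on. They were taken as every probe set whose single gene symbol in the platform annotation is Egr1, Egr2, Egr3, Nr4a1, Nr4a2, Nr4a3, Ier2, Ier3, Ier5 or Srf, which gave 22 probe sets for 10 of the 18193 genes named on the array. The members were chosen by family with their ratio of old to young signal in these same data already known, so their ratios are given as a description, and no test supports them. The left lobe of the lung was resected (pneumonectomy) in old and in young C57BL/6J mice, and, per the labels, vascular cells were then flow-sorted from what remained on the right side. Lung tissue regrows after this operation. Each age is represented by 1 one-colour expression array, so no difference has a replicate check. Both arrays come from operated mice, and the sources used here do not give the ages, the time after surgery, the sorting markers or the number of mice per array. The array labelled old stands apart in carrying liver transcripts: the hepatocyte gene Alb had 8900 signal units in old cells and 20.5 in young cells, and Clec4g, a marker of liver sinusoidal endothelium, had 41144 in old cells and 792 in young cells. The young array in turn was higher in most lymphatic endothelial markers, with Mmrn1 at 74.6 in old cells and 10039 in young cells. Age and a difference in tissue content between the arrays cannot be told apart in any ratio given here.

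Early-response genes are transcribed within minutes of a stimulus from factors already present in the cell, and their messages are short-lived. EGR proteins are zinc-finger transcription factors that bind GC-rich sites, NR4A proteins are orphan nuclear receptors that act without a known need for a hormone, and IER proteins are small products that feed into growth, survival and heat shock responses. In vessels, Egr1 is known for its induction by growth factors, low oxygen, injury and fluid shear. SRF sits upstream, bound at CArG boxes together with partners that answer to ERK signalling or to actin, while CREB drives the Nr4a genes through cyclic AMP response elements (CREs).

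To show where SRF and CREB could meet these genes, RefSeq promoter sequence (GRCm38.p6) was searched on both strands over the 250 bases upstream of each annotated start. It was found for 7 members (Egr2, Nr4a1, Nr4a2, Nr4a3, Ier3, Ier5 and Srf), while the promoters of Egr1, Egr3 and Ier2 were not analysed here and enter none of the motif counts. Capitals below mark the CArG box, the core CRE sequence TGACG, the EGR site GCGNGGGCG and the TATA sequence TATAA, each on either strand. A stretch of 250 bases is given only where the start is the outermost annotated start of the gene, and 30 bases around the motifs otherwise. The lines are Nr4a2 at chr2:57124004-57124253 (minus strand), Ier3 at chr17:35821463-35821712 (plus), Nr4a1 at chr15:101266772-101266801 (plus), Nr4a3 at chr4:48045085-48045114 (plus), Egr2 at chr10:67537793-67537822 (plus) and Srf at chr17:46556215-46556244 (minus).
Nr4a2: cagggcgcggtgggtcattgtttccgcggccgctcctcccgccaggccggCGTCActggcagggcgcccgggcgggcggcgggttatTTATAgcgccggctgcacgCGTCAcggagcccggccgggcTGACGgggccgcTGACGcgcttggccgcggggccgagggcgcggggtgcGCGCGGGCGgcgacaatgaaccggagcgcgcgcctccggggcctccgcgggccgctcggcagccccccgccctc
Ier3: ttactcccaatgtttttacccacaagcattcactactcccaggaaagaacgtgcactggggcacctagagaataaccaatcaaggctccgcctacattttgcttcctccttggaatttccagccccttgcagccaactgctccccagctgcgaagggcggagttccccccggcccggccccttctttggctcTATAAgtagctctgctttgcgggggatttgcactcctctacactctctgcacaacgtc
Nr4a1: gtgtgCGTCAgtggCGCCCCCGCccctctc
Nr4a3: cccatgtCGTCAcatTGACGtctcgcattc
Egr2: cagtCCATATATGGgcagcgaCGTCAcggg
Srf: CCATATAAGGagcggcctcgCCATAAAAGG

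The CArG box was present upstream of 2 of the 7 members, Egr2 and Srf, and in 1.47% of the 32851 promoter windows of the same length. In Srf both boxes lie within the 30 bases shown, and the left one overlaps a TATAA sequence. TGACG was present upstream of 5 members (Egr2, the 3 Nr4a genes and Srf) and in 17.8% of all windows, and the full CRE TGACGTCA was in none of the 7 and in 1.55% of all windows. The EGR site was upstream of 3 members (Nr4a1, Nr4a2 and Srf) and in 4.70% of windows, and TATAA upstream of 5 and in 22.8%. Egr2 has several annotated starts and thus 5 windows. A member was counted if any of its windows held the motif, whereas the shares are per single window, so counts and shares differ in unit. These matches are descriptions of letters in a window and not evidence of binding.

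All 10 genes were above the floor on at least 1 array, and 8 of them were 2-fold or more higher in old cells. None was 2-fold higher in young cells. Among all 12160 genes above the floor on at least 1 array, 16.2% were 2-fold or more higher in old cells and 11.3% in young cells. The floor is the median signal of all probe sets, 73.7 signal units after the arrays were centred on each other, and values below it were treated as unordered. The median log2 ratio of the members, old minus young, was 2.51 (a 5.68-fold difference), against 0.04 over all measured genes. For 4 members (Egr2, Egr3, Nr4a1 and Nr4a3) the young value lay below the floor, so that their ratio is a lower bound. At a stricter 4-fold, 6 members were higher in old cells, where 7.45% of all measured genes were.

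**Figure D1:**
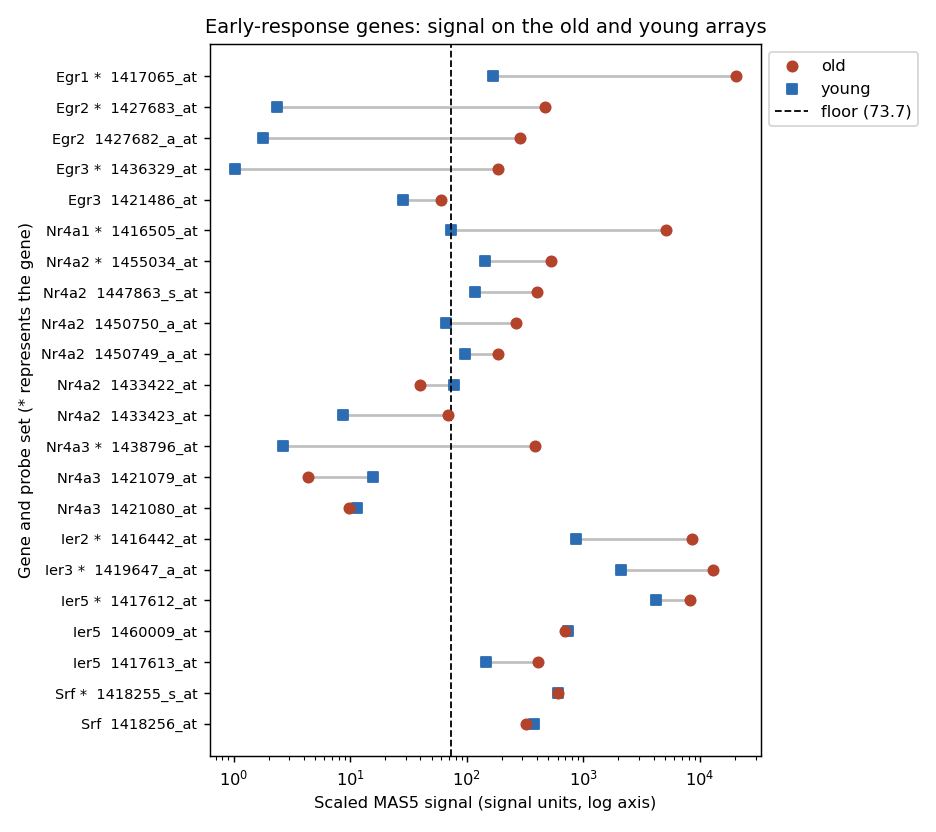
Scaled MAS5 signal of the 22 probe sets on a logarithmic axis, with the old array as circles, the young array as squares and the floor as a dashed line; asterisks mark the probe set that represents each gene. Old values lie to the right for Egr1, Nr4a1, Ier2 and Ier3 by a wide margin, and both values nearly coincide for Srf. The marked probe sets of Egr2, Egr3 and Nr4a3 also show wide gaps, but their young values lie far below the floor, where values were treated as unordered.

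Egr1, the best known member of its family, gave 20259 signal units in old cells and 167 in young cells. The old-cell value was thus 121-fold higher (log2 ratio 6.92), by the only Egr1 probe set. When the 9979 genes that reached the floor in old and in young cells were ordered by their ratio toward old, Egr1 ranked 4, next to Fos at rank 5.

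Egr2, which is also required for myelination, had 470 signal units in old cells and 2.34 in young cells with the probe set 1427683_at. Its other probe set, 1427682_a_at, had 287 in old cells and 1.78 in young cells. The young array gave no Egr2 signal above the floor by either, so the old-cell signal was higher by at least 6.38-fold with 1427683_at and by at least 3.89-fold with 1427682_a_at. Egr3, an EGR factor studied mostly in lymphocytes, muscle spindles and endothelium, had 187 in old cells and 1.02 in young cells with 1436329_at. That is at least 2.54-fold higher in old cells, a bound set by the floor. The other Egr3 probe set, 1421486_at, was below the floor on both arrays, at 59.9 in old cells and 28.6 in young cells.

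The Nr4a genes went the same way, with different certainty. Nr4a1, which encodes NUR77, had 5069 in old cells and 73.1 in young cells by its single probe set. The young value lies just under the floor, and the old-cell value was at least 68.8-fold higher. Nr4a3, which encodes NOR1, had 387 in old cells and 2.67 in young cells with 1438796_at, at least 5.25-fold higher in old cells. Both further Nr4a3 probe sets were below the floor on both arrays, so the call rests on 1 probe set of 3.

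Nr4a2, which encodes NURR1 and is needed for dopamine neurons, has 6 probe sets. The one that represents it, 1455034_at, had 528 in old cells and 142 in young cells, 3.72-fold higher in old cells (log2 ratio 1.89). Next, 1447863_s_at had 396 in old cells and 117 in young cells (3.40-fold), and 1450750_a_at had 263 in old cells and 66.7, below the floor, in young cells (at least 3.57-fold). These 3 probe sets thus gave similar ratios. In 1450749_a_at the signal was 187 in old cells and 96.2 in young cells, a 1.94-fold difference. A low probe set, 1433422_at, had 40.0 in old cells and 78.2 in young cells, and 1433423_at was below the floor on both. Over the 3 Nr4a2 probe sets that reached the floor in old and in young cells the mean log2 ratio was 1.54 ± 0.51 (SD between probe sets). Probe sets of 1 gene share the same RNA, so their spread describes the probes and not the mice.

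The Ier genes had signal well above the floor on both arrays. Ier2, whose product is a short nuclear protein linked to transcription and cell motility, had 8525 in old cells and 870 in young cells. The old-cell value was 9.80-fold higher (log2 ratio 3.29). Ier3, also called IEX-1, an NF-kappaB and p53 target that modulates cell death, had 13013 in old cells and 2119 in young cells. The Ier3 value was 6.14-fold higher in old cells (log2 ratio 2.62). Each of these genes has 1 probe set.

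Ier5, whose product promotes activation of the heat shock factor HSF1, differed less, and its 3 probe sets gave unlike ratios. The representing probe set 1417612_at had 8280 in old cells and 4217 in young cells, a 1.96-fold difference that falls just short of the threshold. With 1417613_at the signal was 411 in old cells and 145 in young cells (2.83-fold). With 1460009_at it was near equal, at 699 in old cells and 745 in young cells (log2 ratio -0.09). The mean log2 ratio over the 3 was 0.79 ± 0.81 (SD between probe sets), a spread larger than the SD of 0.42 pooled within 4514 genes that have several measured probe sets.

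Srf itself was near equal on both arrays. Its probe set 1418255_s_at had 610 in old cells and 609 in young cells, and 1418256_at had 323 in old cells and 375 in young cells. The log2 ratios were 0.00 and -0.22, within 2-fold by both. Across the other scalings and probe choices the Srf log2 ratio took both signs, between -0.22 and 0.10, so no direction can be given.

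Over the probe sets, 18 of 22 were above the floor on at least 1 array, of which 12 were 2-fold or more higher in old cells and 0 in young cells. Among all measured probe sets, 14.2% were 2-fold or more higher in old cells and 10.3% in young cells. The 6 genes with signal above the floor in old and in young cells ran from Egr1 through Ier2, Ier3, Nr4a2 and Ier5 to Srf. The steps in that order were 3.63, 0.67, 0.72, 0.92 and 0.97 in log2 ratio, beside 0.60 for the SD that the spread between probe sets gives for a difference of 2 genes, which holds no spread between mice. With 1 array per age it cannot be said which neighbours differ, and some steps depend on the processing. Nr4a2 and Ier5 were at 1.27 and 0.79 with the mean over probe sets. With the floor at the 75 percentile the Nr4a2 ratio was only a lower bound of 0.11, beside 0.97 for Ier5, so that setting gives them no order. Members with a lower bound have no fixed place in this order.

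**Figure D2:**
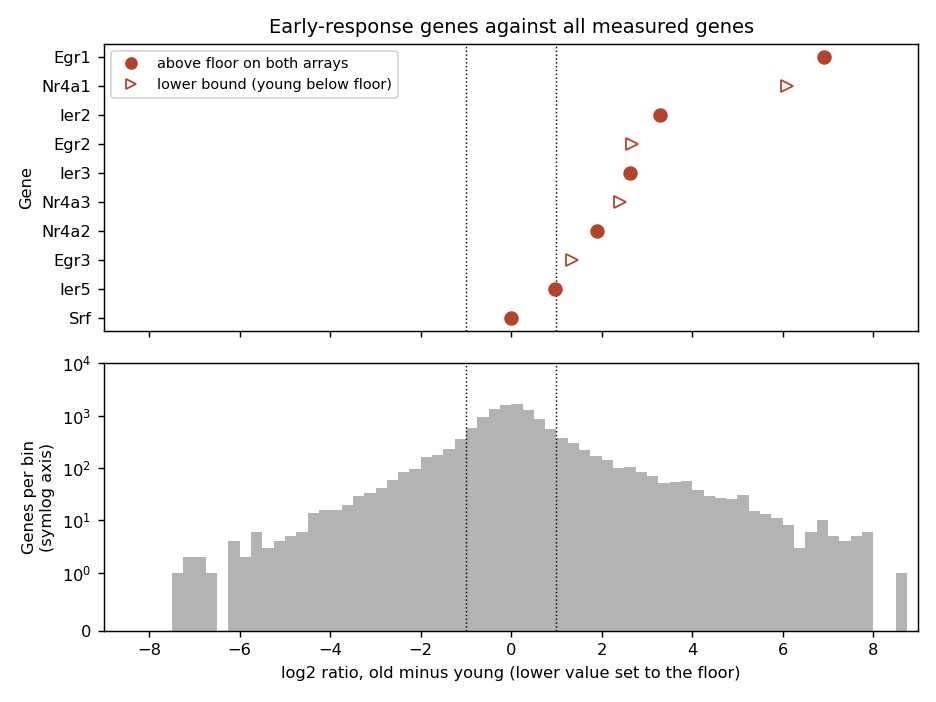
Upper panel, log2 ratio (old minus young) of each of the 10 genes, with filled circles for genes at or over the floor in old and in young cells and open triangles for lower bounds; lower panel, the number of all 12160 measured genes per ratio bin on a symmetric logarithmic axis. Dotted lines mark 2-fold, and 8 of the 10 genes lie to the right of the upper line.

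The regulators of SRF and EGR proteins mostly stayed within 2-fold. Of 5 measured SRF cofactors (Elk1, Elk3, Elk4, Mrtfa and Mrtfb) none was 2-fold apart, and their median log2 ratio was 0.34. Most of all measured genes were also within 2-fold, with 16.2% of them 2-fold or more higher in old cells and 11.3% in young cells. Elk4, an ERK-responsive partner of SRF, came closest with 3530 in old cells and 1802 in young cells (1.96-fold). Mrtfb, an actin-responsive partner, had 1739 in old cells and 1181 in young cells (1.47-fold), and Elk3 had 10273 in old cells and 8099 in young cells (1.27-fold). The muscle cofactor gene Myocd was below the floor on both. The sign of the cofactor median was not stable, since it was -0.05 with quantile normalization.

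Nab1 and Nab2 encode co-repressors that bind EGR proteins and shut their activity down, and Nab2 is itself induced by EGR factors. Nab2 had 394 in old cells and 96.5 in young cells, 4.08-fold higher in old cells. Nab1 had 3618 in old cells and 3047 in young cells (1.19-fold). Wt1, a zinc-finger gene whose product binds related GC-rich sites and which also marks mesothelium, had 161 in old cells and 9.10 in young cells (at least 2.18-fold). Egr4, the remaining family member, was below the floor on both. Of the relatives of the Ier genes, Ier5l had 1276 in old cells and 655 in young cells (1.95-fold), and Ier3ip1, named for its interaction with IER3, had 2059 in old cells and 2492 in young cells (1.21-fold lower in old cells).

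Genes of the kinase cascades upstream were within 2-fold where measured. Of 15 listed ERK and p38 cascade genes 9 had a value and 6 were not analysed here. Of the 9, which include the small GTPase gene Nras, 0 were 2-fold apart in either direction and the median log2 ratio was 0.02. Most measured genes were within 2-fold too: 16.2% of them were 2-fold or more higher in old cells and 11.3% in young cells. The widest differences were those of Rps6ka5, which encodes MSK1, a kinase that acts on CREB and chromatin, with 136 in old cells and 250 in young cells (1.84-fold lower in old cells), and of Rps6ka3, which encodes the kinase RSK2, with 3175 in old cells and 5051 in young cells (1.59-fold lower). Braf had 763 in old cells and 497 in young cells (1.54-fold higher). With values as deposited or with quantile normalization, 1 gene of this list, Rps6ka5, passed 2-fold toward young. These are transcript levels and carry no measure of kinase activity.

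CREB pathway genes were within 2-fold or higher in young cells. Of 11 measured, 0 were 2-fold higher in old cells and 3 in young cells, beside 16.2% and 11.3% of all measured genes. The median log2 ratio was 0.28 and took the opposite sign (-0.02) with quantile normalization. Crem, whose inducible product ICER represses CREB targets, had 550 in old cells and 2622 in young cells, which is 4.77-fold higher in young cells. The cyclic AMP phosphodiesterase genes Pde4d (238 in old cells and 947 in young cells, 3.97-fold) and Pde4b (1296 in old cells and 4455 in young cells, 3.44-fold) were also higher in young cells, although the Pde4d log2 ratio was -0.95, under 2-fold, with the higher floor. Crem, Pde4b and Pde4d are known to be induced by cyclic AMP in many cell types, as Nr4a1 is. Cyclic AMP was not measured, and its part in any of these ratios was not tested. Rxra and Rxrb encode RXR receptors that pair with NURR1 and NUR77. Rxra had 1691 in old cells and 1065 in young cells (1.59-fold), and Rxrb had 1676 in old cells and 1197 in young cells, both within 2-fold.

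**Figure D3:**
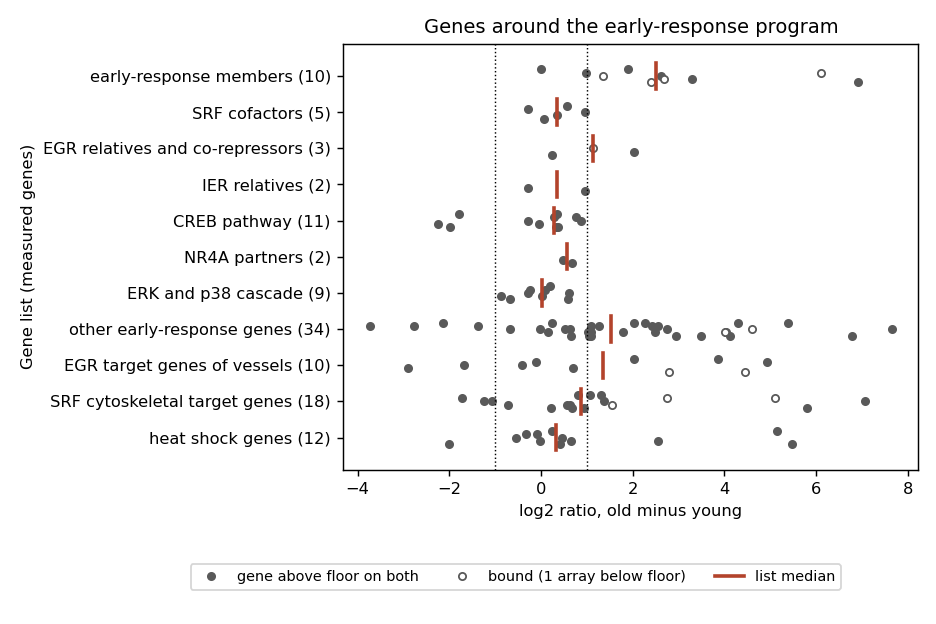
Log2 ratio (old minus young) of each measured gene by list, with filled points above the floor on both arrays, open points for bounds, vertical bars for list medians and dotted lines at 2-fold. The SRF cofactor, ERK and p38 and NR4A partner genes all lie between the dotted lines, while the early-response genes spread far to the right.

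Other early-response genes leaned the same way as the members. Of 34 measured, 23 were 2-fold or more higher in old cells and 4 in young cells, beside 16.2% and 11.3% of all measured genes. Their median log2 ratio was 1.52. Zfp36, which encodes an RNA-decay protein, had 21257 in old cells and 105 in young cells (203-fold), and the AP-1 gene Fos had 27753 in old cells and 251 in young cells (110-fold). Junb, also of AP-1, had 13110 in old cells and 311 in young cells (42.1-fold). Several of the 23 lay near the threshold, and with quantile normalization 17 of the 34 were past it.

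Genes known as EGR targets in vessel cells were divided. Of 10 measured, 5 were 2-fold or more higher in old cells and 2 in young cells (median log2 ratio 1.36), beside 16.2% and 11.3% of all measured genes. Flt1, a VEGF receptor gene, had 7489 in old cells and 247 in young cells (30.3-fold), and the adhesion gene Icam1 had 6948 in old cells and 476 in young cells (14.6-fold). Cd44, the hyaluronan receptor gene, had 1622 in old cells and was below the floor in young cells (at least 22.0-fold). The median was 0.07 with the higher floor at the 75 percentile.

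SRF target genes of the cytoskeleton were also divided, with 8 of 18 measured genes 2-fold or more higher in old cells and 3 in young cells. Over all measured genes the shares were 16.2% and 11.3%. The median log2 ratio of the list was 0.87. The largest differences were those of the smooth muscle genes Acta2 (15847 in old cells and 118 in young cells, 134-fold), Tagln (6548 in old cells and 117 in young cells, 55.8-fold) and Myl9 (2538 in old cells and 25.7 in young cells, at least 34.4-fold). Of the other SRF targets in the list, chosen after their values were seen, Actb (1.91-fold), Vcl (1.75-fold) and Actg1 (1.54-fold) were within 2-fold, Cnn2 (2.57-fold) and Tpm1 (2.09-fold) were past 2-fold toward old, and Zyx (log2 ratio -1.07) was higher in young cells. Smooth muscle and pericyte markers, which share Acta2, Tagln and Cnn1 with this list, were higher in old cells for 5 of 7 genes, with a summed signal of 23885 in old cells and 366 in young cells. Their part in the result was not tested.

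Markers of other cell types also differed between the arrays. The endothelial markers Pecam1 (6049 in old cells and 6239 in young cells) and Cdh5 (12534 in old cells and 9951 in young cells) were well above the floor on both, and of 12 endothelial markers 4 were 2-fold or more higher in old cells and 1 in young cells. The marker counts stand beside 16.2% of all measured genes 2-fold or more higher in old cells and 11.3% in young cells. Summed signals of the markers are over every listed gene that has a probe set, those below the floor included. Leukocyte markers were 2-fold or more higher in old cells for 9 of 10 genes, with a summed signal of 14872 in old cells and 1862 in young cells, and Ptprc, which encodes CD45, had 1403 in old cells and 0.84, below the floor, in young cells. Macrophage markers were higher in old cells for 9 of 10 (summed signal 49641 in old cells and 597 in young cells). Mrc1 alone made up 27542 of that sum in old cells. Fibroblast markers were higher in old cells for 5 of 7 (22662 in old cells and 209 in young cells), mesothelial markers for 5 of 5 (8458 in old cells and 50.6 in young cells) and neutrophil markers for 3 of 3 measured (2127 in old cells and 81.7 in young cells). Hepatocyte markers were higher in old cells for 8 of 8 genes (19939 in old cells and 87.4 in young cells) and liver sinusoidal endothelial markers for 7 of 8 (169349 in old cells and 12658 in young cells). Lymphatic endothelial markers were 2-fold or more higher in young cells for 5 of 7 genes, with a median log2 ratio of -5.23. Their summed signal, 35086 in old cells and 64662 in young cells, includes the bright genes Lyve1 and Flt4, which were within 2-fold. Mmrn1 had 74.6 in old cells and 10039 in young cells. Prox1 had 60.6, below the floor, in old cells and 6885 in young cells. B cell markers were higher in old cells for 1 of 3 (368 in old cells and 67.8 in young cells), platelet markers for 2 of 4 (1414 in old cells and 441 in young cells) and T cell markers for 0 of 3 (371 in old cells and 88.0 in young cells, with Cd4 and Cd8a below the floor on both). Lung epithelial markers were higher in old cells for 2 of 4 and in young cells for 1 (802 in old cells and 488 in young cells), with Sftpc below the floor on both. In these pooled cells a larger share of a cell type and more RNA per cell cannot be told apart, and the part of other cells in the early-response values was not tested.

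Heat shock genes respond to stress of the cell. Of 12 measured, 3 were 2-fold or more higher in old cells, 1 was in young cells and 8 were within 2-fold. Among all measured genes the shares were 16.2% in old cells and 11.3% in young cells. The median log2 ratio of the list was 0.33, and -0.03 with quantile normalization. Hspa1a, an inducible chaperone gene, had 6332 in old cells and 142 in young cells (44.6-fold), Hspb1 had 8846 in old cells and 249 in young cells (35.6-fold), and Hspa1b had 19005 in old cells and 3218 in young cells (5.91-fold). Hspa1a and Hspa1b are near-identical copies whose probes may not separate them. The gene past 2-fold toward young, named after its values were seen, was Hsph1, with 1463 in old cells and 5876 in young cells. The part of cell stress in the early-response values was not tested. For Actb, signal from the 3' end over signal from the 5' end, which rises as RNA degrades, was 1.32 in old cells and 1.20 in young cells. The same ratio for Gapdh lay the other way, at 0.718 in old cells and 0.806 in young cells.

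By the closeness of the log2 ratio to the members' median of 2.51, the most similar genes were Lrmda, Ezr, Aopep, Ap1b1 and Slc50a1, compared among genes whose signal was at least 2 times the floor in old and in young cells. Their ratios ran from 2.49 to 2.52. Ezr, which encodes the membrane-cytoskeleton linker ezrin, had 3629 in old cells and 641 in young cells (5.67-fold). Unnamed clones and predicted genes were left out. The members' median rests in part on lower bounds and was 3.25 with the lower floor, so which genes lie nearest depends on the floor. With 2 arrays a single ratio is all that can be matched.

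**Figure D4:**
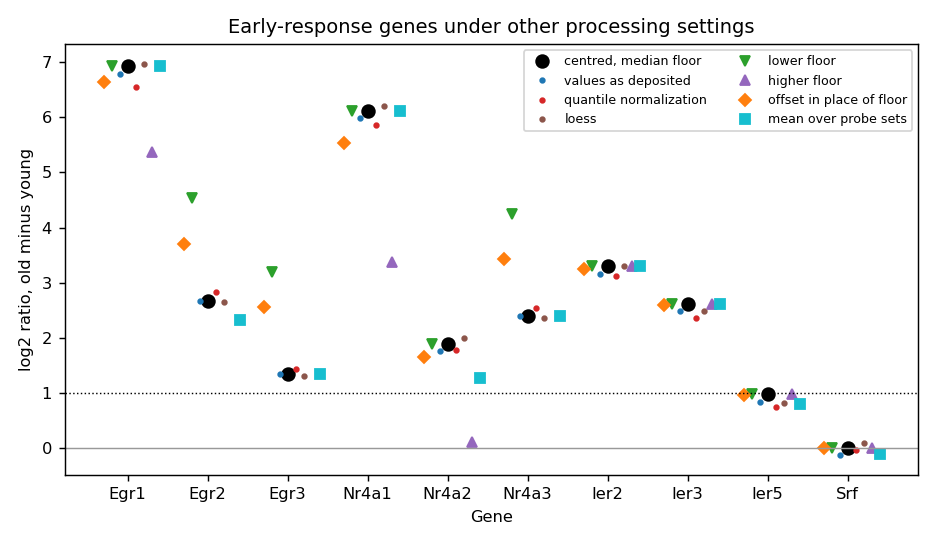
Log2 ratio (old minus young) of each of the 10 genes under the main setting and 7 other processing settings, with a dotted line at 2-fold. Ier2 and Ier3 hardly move, while ratios are larger for Egr2, Egr3 and Nr4a3 with the lower floor and smaller for Egr1, Nr4a1 and Nr4a2 with the higher floor.

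The size of a fold for genes that are dim in young cells depends on the floor. With the floor at the 75 percentile, 7 of the 10 genes were measured and 4 were 2-fold or more higher in old cells (Egr1, Nr4a1, Ier2 and Ier3). Egr3 was not measured when a gene's probe set was chosen before the floor was set, since that takes its probe set that is below the floor on both arrays.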

How the data were processed

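The authors deposited 1 linear intensity value per probe set and array, made with MAS5 in GCOS 1.4 as the submitters' processing notes list them. With 2% trimmed from either end, these values average 500.003 on each array. The 45101 probe sets include 64 controls, which were not analysed. Probe sets were named from the platform annotation of 2016, in which 34958 had 1 gene symbol, 932 several and 9211 none; only those with 1 were used. Promoters were matched by symbol.

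The arrays were centred on the median log2 ratio of probe sets above the floor on both (-0.13 as deposited, factors 1.05 for old and 0.956 for young). The floor was the higher of both medians after centring, which 22519 probe sets reached in old and 20901 in young cells. Values were floored before log2, and a gene took its probe set with the highest mean floored log2 signal. With 1 array per group no test was possible, and 2-fold was the fixed size rule. The number of arrays limits the precision of every value.

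The members and gene lists were chosen with earlier results of these data known. Named genes were all members, up to 3 genes per list by absolute ratio, fixed markers and the 5 genes nearest the members' median; others are said to be chosen later. Lists held pathway genes and cell type markers. The scaling and fold rule were tested on simulated data with changes only in probe sets bright on the young array. Lower bounds and values near the floor were not covered by that test. Python 3.11.15, numpy 2.4.6, pandas 2.3.3, statsmodels 0.14.6 and matplotlib 3.10.9 were used.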

Additional observations from a re-analysis of the deposited data

How the results depend on the processing

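Alternatives were the values as deposited, quantile normalization, a loess fit against mean signal (span 0.4), floors at the 25 and 75 percentiles, an offset of 0.5 times the floor in place of a floor, the mean over probe sets, leaving out shared-sequence probe sets (_x_at and _s_at), a fold of 4 and, added after seeing the data, a probe set chosen before the floor was set. Of the 10 genes, 8 were 2-fold or more higher in old cells under all of these except the floor at the 75 percentile (4 of 7 measured), the fold of 4 (6) and the probe set chosen before flooring (7 of 9 measured, without Egr3), and 0 were higher in young cells under any. The members' median log2 ratio was 3.25 with the lower floor and otherwise between 2.36 and 2.92. The count of probe sets 2-fold or more apart was 12 of 18 measured in the main setting. It was 4 of 8 measured with the higher floor and 14 of 20 with the lower floor, and 6 of 18 were 4-fold or more apart. Over all measured genes the median was -0.09 as deposited and by quantile normalization, against 0.04 after centring. Of single members, the log2 ratios of Egr1 (5.37), Nr4a1 (3.38) and Nr4a2 (0.11) were smaller with the higher floor, where their young values were below it and the ratios became bounds, and the Nr4a2 mean over probe sets was 1.27. Ier5 stayed under 2-fold in every setting run (0.75 to 0.97). No paired analysis was possible because each group holds 1 array.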

Other observations

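Within the list of other early-response genes, 4 were 2-fold or more higher in young cells, and they were picked out after their values were seen. Gem, a small GTPase gene, had 348 in old cells and 4651 in young cells, and its log2 ratio was -3.74. Maff, a small MAF transcription factor gene, had 650 in old cells and 4415 in young cells (-2.76), the phosphatase gene Dusp2 had 328 in old cells and 1446 in young cells (-2.14), and Btg1, an antiproliferative gene, had 3794 in old cells and 9758 in young cells (-1.36). All 4 kept this direction past 2-fold with the other scalings and floors run on the lists.

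Among the EGR target genes, Plau, which encodes the protease urokinase, had 308 in old cells and 2311 in young cells (-2.91), and the growth factor gene Pdgfb had 341 in old cells and 1086 in young cells (-1.67). F3, which encodes tissue factor, had 514 in old cells and 2.13 in young cells, at least 6.97-fold higher in old cells. Among the cytoskeletal SRF targets, Fhl1 (-1.73), Filip1l (-1.25) and Zyx (-1.07), which encodes the focal adhesion protein zyxin, were 2-fold or more higher in young cells. These genes, too, were chosen after their values were seen.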
